A study of Homo sapiens with 4 samples.

Results

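The genes described here are NFE2L2, which encodes the transcription factor NRF2, together with KEAP1, BACH1 and 7 antioxidant genes that are commonly used as NRF2 targets, namely NQO1, GCLC, GCLM, SLC7A11, TXN, TXNRD1 and SRXN1. They were picked by gene name, and all 10 were present among the 28412 genes of the table. Their mRNA was measured by RNA-seq in 4 libraries of a human cell line labelled NB4, which is known as a promyelocytic type of acute myeloid leukemia (AML). A control hairpin vector, sh-NC, had been put into the cells of 2 libraries, and a hairpin vector against LDB1, sh-LDB1, into those of the remaining 2. The study's methods have infected cells kept in puromycin, a drug that selects for the vector, and the labels give no further treatment. LDB1 is an adaptor protein that joins LMO2 and GATA factors in transcription complexes. Knockdown used short hairpin RNA in the lentiviral vector pLKO.1. The sources used here do not give which LDB1 hairpin was sequenced, and they do not say whether the replicates came from separate cultures, so the p-values measure only the spread between these libraries.

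NRF2 is the main activator of the cellular response to oxidants and electrophiles. In resting cells KEAP1 binds NRF2 and hands it to the CUL3 ubiquitin ligase, which leads to its degradation. When oxidants or electrophiles modify cysteines of KEAP1, NRF2 escapes, enters the nucleus, pairs with a small MAF protein (MAFF, MAFG or MAFK) and binds antioxidant response elements near its target genes. BACH1 pairs with the same MAF proteins, occupies the same elements and represses them, and it is released when heme is abundant. Much of this control acts on the NRF2 protein, which mRNA levels do not show. In blood cells, a relative of NRF2 called NFE2 uses the same small MAF partners and a closely related element in erythroid and megakaryocytic genes.

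The element is shown here because it is the feature through which these genes are grouped as NRF2 targets. Its core letters, TGACNNNGC, were looked for on both strands in the 1000 bases before the canonical start of each gene in GENCODE release 44 on hg38. Among the 10 genes, 5 held the core, each at 1 place. Of all 13228 tested genes with such a window, 4441 (33.6%) held it. The stricter letters TGACTCAGC were found in NQO1 alone among the 10, and in 168 of the 13228 genes (1.27%). These stricter letters contain TGACTCA, the AP-1 motif, and they are also close to the motif of NFE2, so a match does not name a factor. Each stretch is written 5′ to 3′ on the strand that carries the core, which is in capitals, with 10 flanking bases on each side in lower case.
NQO1, chr16:69726997-69727025, minus strand, 455 bases before the start: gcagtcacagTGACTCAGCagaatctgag
GCLM, chr1:93909446-93909474, plus strand, 34 bases before the start: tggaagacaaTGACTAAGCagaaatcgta
TXNRD1, chr12:104215670-104215698, plus strand, 99 bases before the start: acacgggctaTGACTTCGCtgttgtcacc
TXN, chr9:110257070-110257098, plus strand, 581 bases before the start: tgctccagctTGACACAGCggtttagtgc
GCLC, chr6:53545953-53545981, plus strand, 870 bases before the start: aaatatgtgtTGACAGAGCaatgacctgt
The windows of NFE2L2, KEAP1, BACH1, SLC7A11 and SRXN1 did not hold these letters, which says nothing about elements elsewhere.

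The libraries had FPKM denominators of 14746656 to 16182674 reads, and FPKM is the number of fragments per kilobase of gene, scaled to that denominator. The denominators need not equal the sequenced depth, because the deposited values already carried a scaling across libraries. LDB1 itself had FPKM values of 135.1 and 120.1 with sh-NC against 10.2 and 9.47 with sh-LDB1, which fits the labels. Across genes, log2(FPKM + 1) correlated at 0.985 between the sh-NC libraries and at 0.984 between the sh-LDB1 libraries. The markers did not follow the label of a promyelocytic line. ELANE, which encodes neutrophil elastase, was under 1 FPKM in all 4 libraries, while the summed FPKM of 14 erythroid markers, among them globins, KLF1 and ALAS2, was 4104.4 and 4276.3 with sh-NC against 448.2 and 411.5 with sh-LDB1. All 13 erythroid markers that were tested fell. The 8 measured promyelocytic and granulocytic markers summed to 23.2 and 22.4 with sh-NC against 75.8 and 73.1 with sh-LDB1, and 5 of the 7 tested rose. Of all tested genes, 29.9% rose and 37.4% fell at a limma adjusted p below 0.05. Megakaryocytic markers summed to between 2.86 and 3.91 FPKM and none of 2 tested passed. Lymphoid markers summed to between 21.3 and 47.7, nearly all of it CD3D, and 1 of 2 tested rose. Monocyte and macrophage markers summed to 0.596 and 0.393 with sh-NC against 5.58 and 5.81 with sh-LDB1, and ITGAM was the only one tested. ITGAM passed the filter on low values only through the sh-LDB1 libraries, so its rise is no independent support, and AHSP among the erythroid markers passed it only through the sh-NC libraries. Each change of a gene in what follows therefore stood beside a lower level of erythroid genes, and the part of that shift in it was not tested. In bulk libraries, fewer cells of a type and less RNA per cell cannot be told apart.

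To examine whether the NRF2 genes changed with LDB1 knockdown, their levels with sh-LDB1 were set against those with sh-NC. Results showed that 1 of the 10 genes, NQO1, was called higher, and that 0 were called lower, where a call needs an adjusted p-value below 0.05 in limma (Benjamini-Hochberg) and a change above 2-fold or below 0.5-fold. With voom on recovered reads and with limma treat 0 were called lower as well, and at an unadjusted p below 0.05 with no fold limit 3 genes were lower. Of all 13300 genes tested, 9.50% were called higher and 10.3% lower. Without the fold limit, 3 of the 10 genes rose (NQO1, NFE2L2 and GCLM), 3 fell (SLC7A11, TXN and KEAP1) and 4 did not pass (BACH1, GCLC, TXNRD1 and SRXN1). On the same terms 29.9% of all tested genes rose and 37.4% fell, shares near those of the 10 genes. Their median log2 fold change was 0.03, beside -0.08 over all tested genes. In 7 of the 10 genes the sh-NC and sh-LDB1 values were fully apart, as they were in 84.6% of all tested genes.

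**Figure D1:**
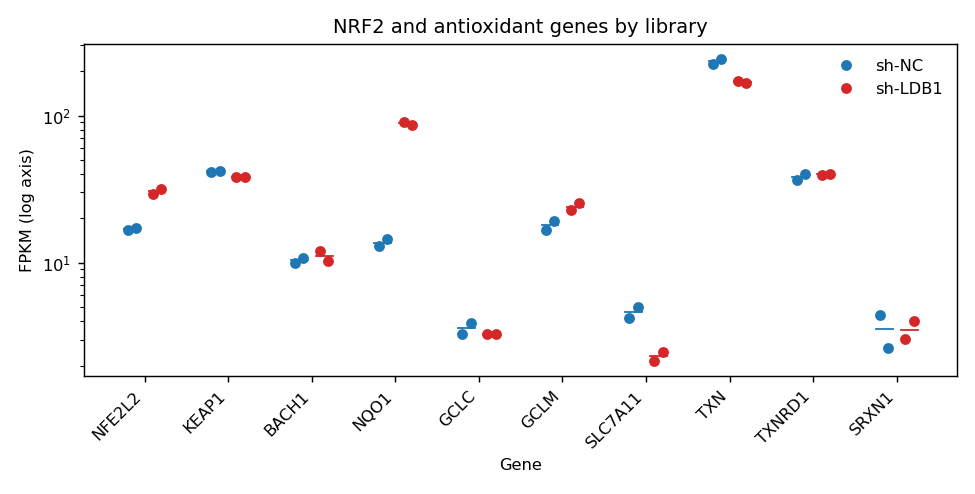
FPKM (log axis) of the 10 genes in each library, with sh-NC in blue and sh-LDB1 in red. Each point is 1 library and each short line the mean of 2. NQO1 is the gene whose groups lie farthest apart, at 13.0 and 14.4 against 90.7 and 86.5, while the points of BACH1, TXNRD1 and SRXN1 overlap between groups.

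NFE2L2 (ENSG00000116044) encodes NRF2 and lies on the minus strand of chr2:177218667-177392756 (hg38). Its FPKM was 16.8 and 17.2 with sh-NC against 29.4 and 31.7 with sh-LDB1. Both sh-LDB1 libraries were above both sh-NC libraries, with no overlap. The mean rose from 17.0 ± 0.244 to 30.5 ± 1.64 (SD, n = 2), a log2 fold change of 0.81 (SE 0.0549, 95% interval 0.66 to 0.96, limma adjusted p = 0.000407). The annotated span of NFE2L2 also holds the genes HNRNPA3 and AGPS on the opposite strand, and its exons share 3509 bases with exons of HNRNPA3. HNRNPA3 had 155.7 and 152.5 FPKM with sh-NC against 148.0 and 137.4 with sh-LDB1, and AGPS went from 27.1 and 28.1 to 16.8 and 15.8, so neither was higher in the libraries where NFE2L2 was higher. Whether reads were assigned by strand is not given in the sources used here. On the same strand, ENSG00000213963 shares 2037 exon bases with NFE2L2, so strand would not separate their reads. It had 411 and 525 recovered reads with sh-NC against 288 and 144 with sh-LDB1.

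KEAP1 (ENSG00000079999), the adaptor that presents NRF2 for degradation, lies at chr19:10486125-10503558 on the minus strand. It was measured at 41.3 and 42.2 FPKM with sh-NC against 38.3 and 38.3 with sh-LDB1. The sh-LDB1 libraries were the lower ones, and their mean was 0.917 times that of sh-NC. The log2 fold change was -0.12 (SE 0.0395, 95% interval -0.23 to -0.02, limma adjusted p = 0.0482). KEAP1 thus passed only narrowly and was not called. It no longer passed when any 1 of the 4 libraries was left out, with log2 fold changes from -0.14 to -0.11. The value turned to 0.05 when libraries were scaled to the same summed FPKM. The direction of KEAP1 thus depends on the scaling.

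BACH1 (ENSG00000156273), the repressor that competes for the same elements, lies at chr21:29194071-29630751 on the plus strand. Its FPKM was 9.91 and 10.8 with sh-NC against 12.0 and 10.2 with sh-LDB1. The groups overlapped, because sh-LDB1 replicate 2 lay between the sh-NC libraries. No difference passed the test for BACH1, with a log2 fold change of 0.08 (95% interval -0.17 to 0.33, limma adjusted p = 0.481), and without sh-LDB1 replicate 1 the value was -0.02. Within each library, the ratio of NFE2L2 to KEAP1 FPKM was 0.407 and 0.406 with sh-NC against 0.767 and 0.827 with sh-LDB1. The ratio of NFE2L2 to BACH1 was 1.7 and 1.58 with sh-NC against 2.46 and 3.11 with sh-LDB1. Both ratios were higher in each sh-LDB1 library than in each sh-NC library, and such a ratio does not depend on how a library is scaled, although its size depends on the gene lengths used. These ratios are given as a description, with no test.

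NQO1 (ENSG00000181019) encodes a quinone reductase that turns quinones into hydroquinones with NADPH or NADH, and it is among the most used readouts of NRF2. It lies at chr16:69706996-69726668 on the minus strand. Its FPKM was 13.0 and 14.4 with sh-NC against 90.7 and 86.5 with sh-LDB1, from 685, 690, 4731 and 4257 recovered reads. The groups lay far apart, and the sh-LDB1 mean of 88.6 ± 3.03 was 6.47 times the sh-NC mean of 13.7 ± 0.969 (SD, n = 2). The log2 fold change was 2.61 (SE 0.0639, 95% interval 2.44 to 2.78, limma adjusted p = 7.46e-05). NQO1 was the only one of the 10 genes past 2-fold. It was also the only one with the letters TGACTCAGC in the stretch printed for it, and whether these letters bear on its change was not tested. Across the 13 alternative settings its log2 fold change stayed between 2.54 and 2.78, and the adjusted p did not exceed 0.0038.

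GCLC and GCLM encode the catalytic and the modifier subunit of glutamate-cysteine ligase, the rate-limiting enzyme of glutathione synthesis. GCLM (ENSG00000023909, chr1:93885199-93909456, minus strand) was measured at 16.6 and 19.2 FPKM with sh-NC against 22.8 and 25.3 with sh-LDB1. Both sh-LDB1 libraries were above both sh-NC libraries. GCLM rose, with a log2 fold change of 0.41 (SE 0.0915, 95% interval 0.16 to 0.65, limma adjusted p = 0.0157). Without sh-LDB1 replicate 2 the value was 0.33 and no longer passed (limma adjusted p = 0.0828). GCLC (ENSG00000001084, chr6:53497341-53616970, minus strand) had 3.3 and 3.91 FPKM with sh-NC against 3.26 and 3.29 with sh-LDB1. The sh-LDB1 values lay at the lower edge of the sh-NC values, hardly apart from sh-NC replicate 1. No change of GCLC passed the test (log2 fold change -0.10, 95% interval -0.36 to 0.15, limma adjusted p = 0.37), and it was 0.03 with libraries scaled to the same summed FPKM. The ratio of GCLM to GCLC FPKM was 5.04 and 4.89 with sh-NC against 7.0 and 7.69 with sh-LDB1. The ratio was higher in both sh-LDB1 libraries, and its size depends on the gene length. Over the canonical transcripts in place of the deposited gene lengths, GCLM stood at 19.9 and GCLC at 8.25 in sh-NC, and at 26.8 and 7.49 in sh-LDB1.

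SLC7A11 (ENSG00000151012) encodes xCT, the light chain of the exchanger that brings cystine into the cell for glutathione synthesis, and it lies at chr4:138164097-138242349 on the minus strand. Its FPKM was 4.22 and 4.97 with sh-NC against 2.15 and 2.49 with sh-LDB1. Both sh-LDB1 libraries were below both sh-NC libraries. In the sh-LDB1 libraries 50.5% of the sh-NC mean was left, with a log2 fold change of -0.75 (SE 0.108, 95% interval -1.04 to -0.46, limma adjusted p = 0.00374). At these low levels the pseudocount of 1 compresses the change. It was -0.96 and -0.98 with pseudocounts of 0.1 and 0.01, and -0.98 with voom on recovered reads. SLC7A11 thus moved in the opposite direction to NQO1 and GCLM, and it held the lowest level of the 10 in sh-LDB1. The antisense gene SLC7A11-AS1 shares 865 exon bases with it and was at or under 0.281 FPKM in all 4 libraries. SLC3A2, the heavy chain of the same exchanger, had 72.1 and 69.5 FPKM with sh-NC, rising to 97.7 and 99.7 with sh-LDB1 (log2 fold change 0.47, limma adjusted p = 0.000844). The mRNAs of the heavy and the light chain therefore moved apart, and the SLC3A2 to SLC7A11 ratio went from 17.1 and 14.0 to 45.5 and 40.1.

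TXN encodes thioredoxin, which reduces protein disulfides, and TXNRD1 encodes the cytosolic reductase that recycles it with NADPH. TXN (ENSG00000136810, chr9:110243810-110256507, minus strand) was measured at 224.0 and 241.9 FPKM with sh-NC against 171.1 and 166.3 with sh-LDB1. It was the most abundant of the 10 mRNAs in all 4 libraries, and the groups did not overlap. TXN fell, with a log2 fold change of -0.46 (SE 0.0545, 95% interval -0.61 to -0.32, limma adjusted p = 0.00201). TXNRD1 (ENSG00000198431, chr12:104215779-104350307, plus strand) had 36.7 and 40.0 FPKM with sh-NC against 39.4 and 40.3 with sh-LDB1. The groups overlapped and no change of TXNRD1 passed (log2 fold change 0.06, 95% interval -0.10 to 0.21, limma adjusted p = 0.423), but with libraries scaled to the same summed FPKM it was 0.22 and passed (limma adjusted p = 0.0246). The TXN to TXNRD1 ratio was 6.11 and 6.05 with sh-NC against 4.34 and 4.13 with sh-LDB1.

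SRXN1 (ENSG00000271303) encodes sulfiredoxin, which repairs over-oxidised peroxiredoxins, and it lies at chr20:646615-653200 on the minus strand. Its FPKM was 4.42 and 2.64 with sh-NC against 3.01 and 4.02 with sh-LDB1. Both sh-LDB1 values lay between the sh-NC values. The log2 fold change was 0.01 with an SE of 0.232, the largest of the 10 genes, and its 95% interval reached from -0.61 to 0.64 (limma adjusted p = 0.962). ENSG00000270299 on the same strand shares 2292 exon bases with SRXN1 and was at or under 0.125 FPKM in every library. The split of reads between them is therefore uncertain, also if reads were assigned by strand. SRXN1 had 105 to 193 recovered reads per library, and its sh-NC libraries lay far apart. The value was -0.15 without sh-LDB1 replicate 2 and -0.27 without sh-NC replicate 2, so these libraries give SRXN1 no direction.

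**Figure D2:**
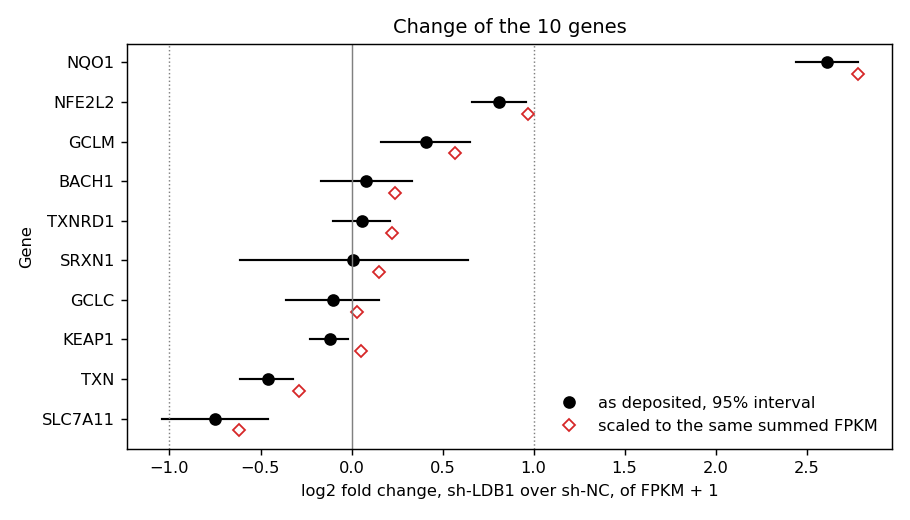
Log2 fold change of the 10 genes on the log2(FPKM + 1) scale, with black points and bars for the deposited values and their 95% intervals and red diamonds for libraries scaled to the same summed FPKM. The dotted lines mark a 2-fold change. NQO1 lies past 2-fold at 2.61, and the other scaling moves all 10 genes to the right, which takes KEAP1 from -0.12 to 0.05.

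Scaling mattered for the small changes. The deposited values gave a median log2 fold change of -0.08 over all tested genes. Scaling by the median ratio over expressed genes shifted that median by 0.08, and scaling to the same summed FPKM shifted it by 0.14. The share of lower genes among all calls was 52.0% as deposited, 43.9% with the former and 38.5% with the latter. Relative to these shifts NQO1, NFE2L2, SLC7A11, TXN and GCLM kept their direction and passed under both scalings, whereas KEAP1, GCLC, BACH1 and TXNRD1 lay within about the size of the shift from 0.

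Ordered by mean FPKM, the sh-NC libraries had TXN at 233.0, KEAP1 at 41.8, TXNRD1 at 38.3, GCLM at 17.9, NFE2L2 at 17.0, NQO1 at 13.7, BACH1 at 10.4, SLC7A11 at 4.59, GCLC at 3.61 and SRXN1 at 3.53. In this order the neighbours GCLM and NFE2L2 overlapped in their library values. At the lower end SRXN1 spanned 2.64 to 4.42, which overlapped both SLC7A11 and GCLC, while the other neighbours were apart in their library values. In sh-LDB1 NQO1 moved from the sixth to the second place, and the order was TXN, NQO1, TXNRD1, KEAP1, NFE2L2, GCLM, BACH1, SRXN1, GCLC and SLC7A11, where SRXN1 and GCLC overlapped. These places depend on the gene length used for FPKM, most of all that of NFE2L2. The length recovered from the deposited values was 17937 bases for NFE2L2, while its canonical transcript has 2446. Over the canonical length the same reads gave NFE2L2 a level of 124.7 in sh-NC and 223.7 in sh-LDB1, above KEAP1 at 61.3 and 56.2, and second to TXN at 361.0 and 261.4. TXNRD1 then stood above KEAP1 in sh-NC as well, at 66.6, GCLC at 8.25 stood above SLC7A11 at 4.59, and NQO1 at 114.4 came after TXN and NFE2L2 in sh-LDB1. This alternative was chosen after seeing the data. The ratio of a gene's FPKM between groups does not depend on the length. The fitted log2 fold changes and the filter on low values do, because of the pseudocount of 1 and the limit of 1 FPKM.

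The genes that control or assist NRF2 were considered next. Of 18 such genes, all were tested, 5 rose and 6 fell, and the median log2 fold change was -0.01. The shares over all tested genes were 29.9% that rose and 37.4% that fell. SQSTM1 (p62), an autophagy receptor that binds KEAP1 and is itself an NRF2 target, had 30.6 and 30.2 FPKM with sh-NC against 123.8 and 126.8 with sh-LDB1 (log2 fold change 2.01, SE 0.0395, limma adjusted p = 6.77e-05). DPP9, a dipeptidyl peptidase, rose from 9.66 and 10.2 to 30.7 and 31.2 FPKM (log2 fold change 1.55, limma adjusted p = 0.0001). TRIM16, a ubiquitin ligase, rose from 0.986 and 0.721 to 4.76 and 4.44 FPKM (log2 fold change 1.60, limma adjusted p = 0.000466). Both sh-NC values were under 1 FPKM, so the pseudocount of 1 compresses the change, which was 2.31 and 2.43 with pseudocounts of 0.1 and 0.01 and 2.43 with voom on recovered reads. TRIM16 has a shorter related copy elsewhere on chr17, TRIM16L, so the split of reads between them is uncertain. TRIM16L was listed at 0.0999 and 0.172 FPKM with sh-NC against 1.27 and 1.33 with sh-LDB1. CUL3, the scaffold of the ligase, was at 4.89 and 5.03 with sh-NC against 4.83 and 4.81 with sh-LDB1 and did not pass (log2 fold change -0.04, 95% interval -0.20 to 0.12, limma adjusted p = 0.629), with 0.05 and 0.11 under the other scalings.

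The DNA-binding relatives and partners of NRF2 moved unequally. NFE2 was measured at 162.9 and 153.3 FPKM with sh-NC against 20.2 and 21.0 with sh-LDB1. It was the gene of this list called lower (log2 fold change -2.88, SE 0.0501, limma adjusted p = 6.77e-05). The NFE2 to NFE2L2 ratio was 9.69 and 8.93 with sh-NC against 0.689 and 0.661 with sh-LDB1, and over the shorter canonical length of NFE2L2 it would be lower in all libraries by one common factor. NFE2L1, a relative that controls proteasome genes, did not pass at 24.2 and 23.0 against 27.4 and 25.6 FPKM (log2 fold change 0.16, limma adjusted p = 0.0599), but it passed at 0.26 and 0.33 under both other scalings. Among the small MAF proteins, MAFK rose from 11.0 and 9.17 to 15.2 and 15.7 FPKM (log2 fold change 0.57, limma adjusted p = 0.00585). MAFF rose from 2.59 and 2.6 to 3.76 and 3.88 (log2 fold change 0.42, limma adjusted p = 0.00652), and without sh-LDB1 replicate 2 it was 0.41 with an adjusted p of 0.0522. MAFG, the most abundant of them, fell from 35.4 and 32.2 to 29.1 and 29.0 (log2 fold change -0.21, limma adjusted p = 0.0318). The fall of MAFG did not pass without sh-NC replicate 1, sh-LDB1 replicate 1 or sh-LDB1 replicate 2 (limma adjusted p 0.0521, 0.127 and 0.132) or under either other scaling.

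**Figure D3:**
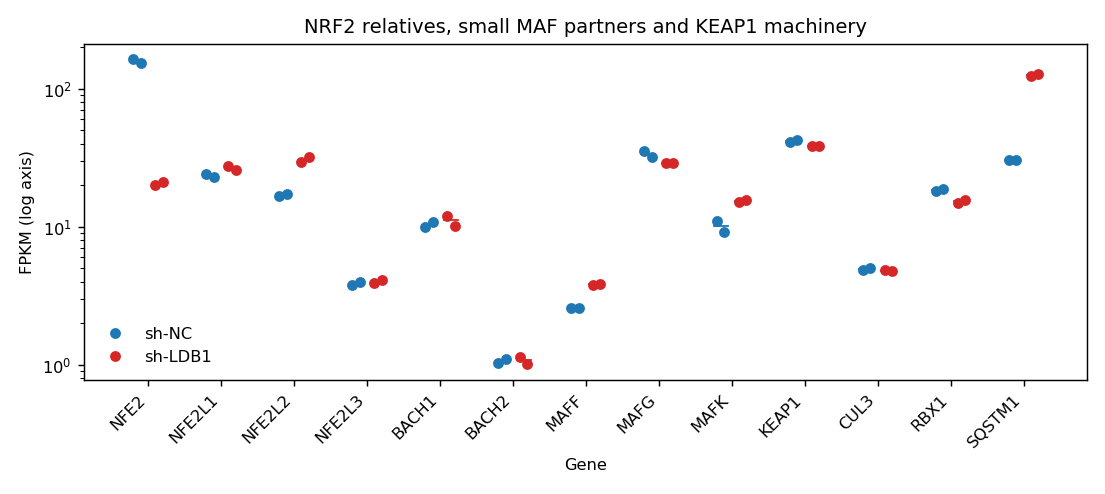
FPKM (log axis) per library of NFE2, NRF2 (NFE2L2) and their relatives, the small MAF partners, and KEAP1 with CUL3, RBX1 and SQSTM1, with sh-NC in blue and sh-LDB1 in red. Points are libraries and short lines are means of 2. NFE2 drops from 162.9 and 153.3 to 20.2 and 21.0 while NFE2L2 and SQSTM1 are higher in sh-LDB1, and the points of NFE2L3 and BACH2 overlap between the groups.

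Other NRF2 target genes were looked at to see whether the rise of NQO1 was shared. Of 32 listed genes, 31 were in the table and 23 were tested. Results showed that 15 of the 23 rose, 4 fell and 4 did not pass, with a median log2 fold change of 0.61, beside -0.08 over all tested genes. Among them 6 were called higher and 1 lower. The shares over all tested genes were 29.9% that rose, 37.4% that fell, 9.50% called higher and 10.3% called lower. This list was chosen with results of these data known, and the 8 untested genes of the table had a mean under 1 FPKM. AKR1C1 and AKR1C3, aldo-keto reductases, rose from 7.34 and 7.41 to 21.8 and 22.7 FPKM (log2 fold change 1.47, limma adjusted p = 0.000107) and from 7.46 and 8.36 to 26.4 and 25.0 FPKM (log2 fold change 1.58, limma adjusted p = 0.000158). The AKR1C genes are close copies, so the split of reads among them is uncertain.

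The ferritin chains, which store iron and are also NRF2 targets, moved in opposite directions. FTL, the light chain, had 4723.1 and 5380.6 FPKM with sh-NC against 18604.0 and 18138.9 with sh-LDB1 (log2 fold change 1.87, limma adjusted p = 0.000198). FTH1, the heavy chain, had 708.7 and 787.1 with sh-NC against 395.8 and 416.2 with sh-LDB1 (log2 fold change -0.88, limma adjusted p = 0.000621). The FTL to FTH1 ratio was 6.66 and 6.84 with sh-NC against 47.0 and 43.6 with sh-LDB1. Both genes have many processed copies in the genome, so their counts are uncertain, and FTL did not pass when the filter on low values was dropped (limma adjusted p = 0.0897). GSTP1, a glutathione transferase, was called lower, with 736.8 and 736.6 FPKM with sh-NC against 284.7 and 294.5 with sh-LDB1 (log2 fold change -1.34, limma adjusted p = 0.000102). HMOX1, which breaks down heme and is a classical target of both NRF2 and BACH1, was at 0.0514 and 0.0 FPKM with sh-NC against 0.389 and 0.275 with sh-LDB1. These came from 2, 0, 15 and 10 recovered reads, and HMOX1 was too low to be tested.

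In the glutathione system, 24 genes were listed and 19 tested, of which 7 rose and 9 fell, and the median log2 fold change was -0.18. Among them 1 was called higher and 4 lower. Over all tested genes 29.9% rose, 37.4% fell, 9.50% were called higher and 10.3% lower. GPX4, the peroxidase that detoxifies lipid peroxides, rose from 109.1 and 100.5 to 212.3 and 210.1 FPKM (log2 fold change 1.01, limma adjusted p = 0.000234). Without sh-NC replicate 2 the value of GPX4 was 0.95, which passed but was under 2-fold. GSS, glutathione synthetase, which acts after GCLC and GCLM, fell from 13.8 and 12.8 to 4.48 and 3.99 FPKM (log2 fold change -1.45, limma adjusted p = 0.000211). CHAC2 and GGCT, which act in glutathione breakdown, fell with log2 fold changes of -1.58 (limma adjusted p = 0.000264) and -1.41 (limma adjusted p = 0.000265). GSTO1, an omega-class glutathione transferase, fell from 209.3 and 183.0 to 88.4 and 82.5 FPKM (log2 fold change -1.19, limma adjusted p = 0.00042). GSR, which reduces oxidised glutathione, was at 61.9 and 61.2 with sh-NC against 70.3 and 67.5 with sh-LDB1. Its log2 fold change of 0.16 passed (limma adjusted p = 0.0263), but not without sh-LDB1 replicate 1, sh-LDB1 replicate 2 or sh-NC replicate 2 (limma adjusted p 0.162, 0.079 and 0.0597).

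In the thioredoxin and peroxiredoxin system, 20 of 23 listed genes were tested, of which 8 rose and 8 fell, with a median log2 fold change of 0.17. Beside this, 29.9% of all tested genes rose and 37.4% fell. TXNIP, which binds and inhibits thioredoxin, rose from 180.4 and 186.2 to 709.7 and 691.1 FPKM (log2 fold change 1.93, SE 0.0439, limma adjusted p = 7.03e-05). As TXN fell in the same libraries, the TXN to TXNIP ratio went from 1.24 and 1.3 with sh-NC to 0.241 and 0.241 with sh-LDB1. MSRB1, a methionine sulfoxide reductase, and PRDX5, a peroxiredoxin, were called higher with log2 fold changes of 1.35 (limma adjusted p = 0.000121) and 1.16 (limma adjusted p = 0.00377). PRDX1, an NRF2 target, rose from 234.1 and 255.8 to 462.8 and 458.0 FPKM (log2 fold change 0.91, limma adjusted p = 0.000352). PRDX2, the peroxiredoxin that is abundant in red cells, fell from 171.2 and 164.0 to 50.0 and 53.6 FPKM (log2 fold change -1.67, limma adjusted p = 0.0001). PRDX2 was below PRDX1 in every library, and the gap was wider with sh-LDB1. Without sh-NC replicate 2, PRDX5 had a log2 fold change of 0.92, which passed but was under 2-fold.

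Of 13 genes for superoxide and peroxide enzymes, 9 were tested, of which 4 rose, 4 fell and 1 did not pass. Among all tested genes the shares were 29.9% that rose and 37.4% that fell. CAT, catalase, fell from 50.5 and 52.6 to 11.5 and 10.7 FPKM (log2 fold change -2.12, limma adjusted p = 8.1e-05). SOD1, the cytosolic superoxide dismutase, fell from 154.2 and 144.3 to 42.5 and 36.9 FPKM (log2 fold change -1.89, limma adjusted p = 0.000154). CAT and PRDX2 are abundant in red cells, and the 13 tested erythroid markers fell in the same libraries. The part of that shift in the falls of CAT, PRDX2 and SOD1 was not tested. RAC2, a subunit of the phagocyte NADPH oxidase, rose from 66.4 and 73.2 to 160.8 and 166.4 FPKM (log2 fold change 1.22, limma adjusted p = 0.000202). NCF4, another subunit, is counted among the calls, but it passed the filter on low values only through the sh-LDB1 libraries, so its call supports nothing. It had 0 and 4 recovered reads with sh-NC against 62 and 46 with sh-LDB1, and its fitted log2 fold change ran from 1.34 to 5.6 with the pseudocount and library choice, so no size is given for it. The granulocytic markers rose in the same libraries, and their part in the phagocyte oxidase genes was not tested.

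Over all 5 lists, 87 of 108 listed genes were tested, 15 were called higher and 9 lower, 37 rose and 31 fell, and the median log2 fold change was 0.08. The background shares for 13300 genes were 9.50% called higher, 10.3% called lower, 29.9% that rose and 37.4% that fell.

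**Figure D4:**
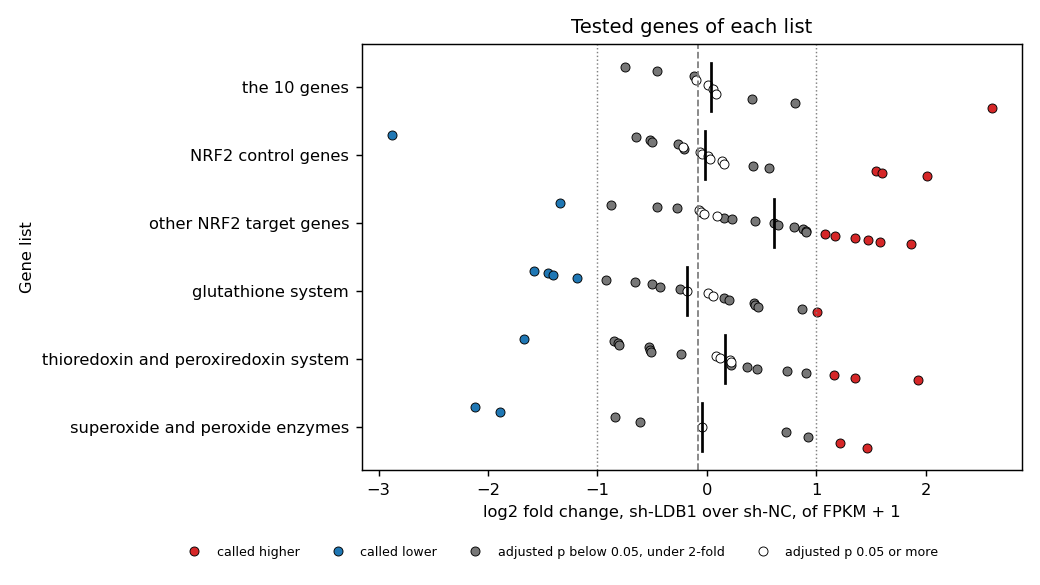
Log2 fold change (sh-LDB1 over sh-NC, of FPKM + 1) of the tested genes of each list, 1 point per gene. Red and blue points were called higher and lower, grey points passed under 2-fold and open points did not pass. Vertical bars are list medians, from -0.18 for the glutathione system to 0.61 for the other NRF2 targets, and the dashed line is the median of all tested genes at -0.08.

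The genes whose profile over the 4 libraries lay nearest to NFE2L2 and NQO1 were sought among the 4839 genes that averaged 10 FPKM or more, by the root mean square distance of centred log2(FPKM + 1). Nearest to NFE2L2 were RAB11B (0.0187) and PITPNM1 (0.0196). Nearest to NQO1 were FOLR1 (0.0496), CHPF2 (0.054) and TNFSF9 (0.0567). With 4 libraries, such likeness rests mostly on the size of the difference between the groups.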

How the data were processed

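RNA-seq was performed on 4 libraries from total RNA prepared with an Illumina TruSeq kit. Per the submitters' processing notes, reads were mapped with HISAT2 2.0.5 to hg38. The authors deposited 1 table of FPKM, with 1 column per library and 0 columns of other samples. The counting tool, the annotation and the use of strand are not given in the sources used here. The members and gene lists were chosen with earlier results of these data known.

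Genes averaging 1 FPKM or more, 13300 in all, were tested as log2(FPKM + 1), which understates the change of low genes, with limma 3.58.1 in R 4.3.3 (eBayes with a trend, Benjamini-Hochberg adjustment, no replicate block). The replicate numbers did not pair the libraries. The planned count tests (edgeR, DESeq2) were not run because the table holds FPKM. Steps were tested on simulated data.

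Reads were recovered from the FPKM steps, using 11079 single-transcript genes, and came out whole within 0.01 reads for 99.67% of genes above 0. Lengths and positions came from GENCODE release 44, which held 28193 of the 28412 genes, and for 87.6% of those the recovered gene length differed by under 10% from GENCODE. Set against geometric means over genes, all 4 libraries had a median ratio of 1.008, so the deposited FPKM already carried such a scaling.

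Besides the 10 members and LDB1, the genes named were up to 4 of smallest adjusted p called in each direction on each of 5 lists, 16 genes named whatever their values, and the 3 nearest profiles to NFE2L2 and NQO1. HNRNPA3, AGPS, ENSG00000213963, ENSG00000270299, TRIM16L, SLC7A11-AS1, RBX1, NFE2L3, BACH2 and the marker genes were named outside this rule, for the overlap and marker checks and 1 figure. MPO, CTSG, GSTM1 and MSRB3 were not analysed here, and some genes that the rule names are not reported here. Alternatives changed the pseudocount, filter, scaling, test, block, fold limit and libraries used. Remaining steps used Python 3.11.15, numpy 2.4.6 and pandas 2.3.3.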

Additional observations from a re-analysis of the deposited data

How the results depend on the processing

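With 2 libraries per group, the results depend most on scaling and on the fold limit. With no fold limit, 3 of the 10 genes passed higher and 3 lower, and over the 5 lists 37 passed higher and 31 lower. When limma treat was run against a 2-fold change, 8 list genes were called higher and 8 lower. Of all 13300 tested genes, 568 were called higher and 581 lower under that setting. When each library was left out in turn, 13 to 16 list genes were called higher and 9 to 9 lower, and 1 and 0 of the 10 genes. The sign turned in 8 gene values. With libraries scaled to the same summed FPKM KEAP1 was 0.05, GCLC 0.03 and CUL3 0.11, and CUL3 was 0.05 by the median ratio. When each library was left out, BACH1 ran from -0.02 to 0.19, TXNRD1 from -0.00 to 0.12 and SRXN1 from -0.27 to 0.30, with SRXN1 below 0 without sh-LDB1 replicate 2 (-0.15) and without sh-NC replicate 2. Over 42 gene values and 539 alternative values, 504 kept their direction and side of the threshold, 22 no longer passed and 5 newly passed. Of 36 named genes that passed, 30 passed with the same sign under every alternative run, and the others were KEAP1, GCLM, FTL, GSR, MAFG and MAFF. With a replicate block, the counts were the same, 1 and 0 of the 10 genes and 15 and 9 list genes, and KEAP1 no longer passed (limma adjusted p = 0.1). Deviations of same-numbered libraries correlated at 0.0196, so the libraries share only a number. GCLC, SLC7A11, SRXN1, CUL3, MAFF, TRIM16 and NCF4 had no value under a filter of at least 5 FPKM, and edgeR, DESeq2 and their filters were not run because the table holds FPKM.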
